A study of Mus musculus with 2 samples.

Results

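Of the 31055 features counted in the study, 7 genes of the ETS family were examined: Erg, Fli1, Ets1, Ets2, Elk3, Etv6 and Elf1. They were chosen by name as ETS factors with known roles in endothelium, by a rule that uses no measured value, though earlier results of these data were known, and all 7 were found in both libraries. Orthotopic PyMT mammary tumors and KPC pancreatic tumors had been grown for 10 days from 100000 implanted tumor cells in 6-week-old female C57BL6 mice whose genotype label is WT. The tumors were digested with collagenase D, cells carrying CD45, EpCAM, Ter119, podoplanin or Annexin V were depleted, and endothelial cells were sorted for droplet-based sequencing of transcript 3′ ends. Each tumor model gave 1 library. How many mice went into each is not given in the sources used here, which name the kit version as v2 and as v3. With 1 library per model there is no replicate check, so no test between groups was made and every interval below covers counting error only.

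ETS factors share a winged helix-turn-helix domain that reads a GGAA core in DNA. In endothelium, ERG and its close paralog FLI1 keep junction and lineage genes such as Cdh5 active, and ETS1 and ETS2 respond to growth factor signalling through ERK. ELK3 is a ternary complex factor that works beside serum response factor and often represses, ETV6 is a repressor, and ELF1 has been tied to transcription of the receptor Tek.

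The members lie at 5 places in the mouse genome (mm10 coordinates, GENCODE gene bounds). Erg, on the minus strand at chr16:95359169-95586593, and Ets2, on the plus strand at chr16:95702075-95721051, are neighbours 115 kb apart with 0 protein-coding genes between them. Fli1, on the minus strand at chr9:32422204-32542861, and Ets1, on the plus strand at chr9:32636221-32757820, are likewise 93.4 kb apart with 0 protein-coding genes between. Elk3 is at chr10:93247414-93311135 on the minus strand, Etv6 at chr6:134035700-134270158 on the plus strand and Elf1 at chr14:79481194-79582494 on the plus strand. Counted genes overlap 5 members on the opposite strand (Gm27201 at Fli1, Gm27240 at Ets1, Cdk17 at Elk3, Gm17088 and Gm17089 at Etv6, and Wbp4 at Elf1). None overlaps Erg or Ets2.

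RefSeq promoter sequences of build GRCm38.p6 were matched for 5 of the 7 members. The 250 bases upstream of the outermost start are shown for Erg, at 2.38 CPM (UMIs per 1000000) or less in the Krt8/Krt18 gates and KPC fibroblasts described below, for Elk3, highest in lymphatic cells, and for Etv6, detected in every class. These windows, in the order given, are chr16:95586594-95586843 (minus strand), chr10:93311160-93311409 (minus strand) and chr6:134035450-134035699 (plus strand). They run 5′ to 3′ on the gene's strand and overlap no annotated exon. Capitals mark the ETS core, GGAA when it lies on the strand shown and TTCC when it lies on the other.
Erg: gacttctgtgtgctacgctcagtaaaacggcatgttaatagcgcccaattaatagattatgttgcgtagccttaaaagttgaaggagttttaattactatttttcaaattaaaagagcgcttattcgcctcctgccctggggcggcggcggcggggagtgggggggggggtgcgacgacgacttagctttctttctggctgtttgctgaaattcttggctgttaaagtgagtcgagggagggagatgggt
Elk3: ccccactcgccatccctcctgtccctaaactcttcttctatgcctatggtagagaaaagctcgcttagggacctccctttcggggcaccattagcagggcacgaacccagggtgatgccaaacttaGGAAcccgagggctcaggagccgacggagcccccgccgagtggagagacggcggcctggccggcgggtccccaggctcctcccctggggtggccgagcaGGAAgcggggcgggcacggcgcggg
Etv6: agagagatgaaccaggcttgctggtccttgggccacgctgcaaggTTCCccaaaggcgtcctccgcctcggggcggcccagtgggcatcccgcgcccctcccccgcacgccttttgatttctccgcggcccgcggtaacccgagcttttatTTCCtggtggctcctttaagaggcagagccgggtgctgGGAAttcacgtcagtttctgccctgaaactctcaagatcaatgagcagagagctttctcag
The Erg window held 0 GGAA cores, the Elk3 window 2 and the Etv6 window 3. Windows of the same length at other annotated Erg starts, not shown, held 4 and 2 cores. The count of 0 is therefore for the outermost Erg start only. Of 32851 promoter windows of the same length, 93.4% held at least 1 core, with a median of 3. The longer form CAGGAA, which contains the core, was in the Elk3 and Etv6 windows and in 25.7% of all windows, and CCGGAA was in none of the 3 and in 12.0% of all. G and C made up 48.8% of the Erg window against 67.2% for Elk3 and 60.4% for Etv6. These matches are letters in a window and not sites shown to be bound.

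The deposited counts hold 12464 barcodes and 55547926 unique molecular identifiers (UMIs, 1 per captured transcript) for PyMT, and 10236 barcodes and 44441942 UMIs for KPC. After the filter on genes and mitochondrial UMIs, 11744 PyMT and 9591 KPC cells were left, and the libraries shared 170 barcode sequences. Cells were sorted into classes by summed UMIs of gate genes that are no members: venule (Ackr1, Selp), artery (Gja5, Sema3g), tip (Apln, Angpt2), capillary (Car4, Cd300lg) and the ungated rest, called other, together make up the blood endothelial cells (BECs). BECs numbered 10677 in PyMT and 7433 in KPC, and the remaining gates were lymphatic (Mmrn1, Prox1), pericyte (Notch3, Higd1b), fibroblast (Col1a1, Col1a2) and Krt8/Krt18. PyMT classes held 360 venule, 126 artery, 1991 tip, 2597 capillary, 5603 other, 633 lymphatic, 27 pericyte, 28 fibroblast and 379 Krt8/Krt18 cells. KPC classes held 640, 105, 1302, 1297, 4089, 802, 119, 443 and 794 in the same order. Markers outside the gates were read to check the class names. Artery cells carried 1944 CPM of the arterial connexin Gja4 in PyMT and 1880 in KPC, against 8.0 and 12.3 in venules, and lymphatic cells carried 11477 and 13420 CPM of Ccl21a. Lymphatic cells also carried 234 and 265 CPM of Pdpn, the podoplanin gene, and are those left after podoplanin-carrying cells were depleted. The sums of the tip and venule marker lists were highest in their own class among BECs, but some single markers peaked elsewhere. Cxcr4 was highest in artery cells of both libraries (49.2 CPM against 18.1 in tip cells of PyMT, 30.9 against 22.1 in KPC). In PyMT, Nid2 was higher in other (160 CPM) than in tip cells (135). Vwf was higher in artery than in venule cells of both libraries (369 against 244 CPM, 269 against 251), and Vcam1 in PyMT (193 against 115). The capillary name also held less well in PyMT. There, none of the 4 capillary markers outside the gate was highest in the capillary class among BECs, since Rgcc peaked in tip (766 CPM), Gpihbp1 in other (1305) and both Cd36 (399.97) and Aqp1 (1211) in venule cells, and their sum was 2439 CPM in capillary against 2315 in other and 2294 in tip cells. In KPC all 4 were highest in the capillary class, with a sum of 4573 CPM against 2880 in other and 2539 in tip cells. Ratios over capillary cells are therefore ratios over cells with Car4 or Cd300lg UMIs, a reference less set apart in PyMT than in KPC. The Krt8/Krt18 gate held tumor cells in KPC, with 2789 CPM of Krt19, but in PyMT it had 1.02 CPM of Krt19 and 19.7 CPM of Epcam, and it is called by its genes here. The summed level of 6 pan-endothelial markers was 2558 CPM in KPC pericyte-gated cells and 3479 in PyMT ones, against 4745 and 3841 in BECs, beside 5159 and 2773 CPM of 5 pericyte markers, so that gate held endothelial RNA too. Ccl21a also stood at 484 CPM (PyMT) and 585 CPM (KPC) in the other class. That class is defined by no gate, and not all of its cells passed an endothelial check. At least 2 UMIs of Pecam1, Cdh5 and Kdr without a Ptprc UMI were found in 4923 of 5603 PyMT and 3566 of 4089 KPC other cells. The class held 24.4 and 143 CPM of the fibroblast marker Dcn, and 6 immune markers summed to 18.0 and 128 CPM. At least 2 gates were met by 10.5% of PyMT and 7.59% of KPC cells, which went to the gate applied earlier, and no doublets were removed.

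Erg was an endothelial gene at low level, with little difference between endothelial classes. Its level was 16.0 CPM in venule, 14.4 in artery, 12.99 in tip, 12.3 in capillary, 15.6 in other and 11.2 in lymphatic cells of PyMT. In KPC it was 14.7 in venule, 21.6 in artery, 18.2 in tip, 19.0 in capillary, 18.6 in other and 14.7 in lymphatic cells. With the endothelial classes ranked by level, no neighbouring ranks differed beyond their interval in either library. Of the ratios over capillary or over BECs among them, only that of other over capillary in PyMT excluded 0. It was 0.34 on the log2 scale (0.06 to 0.63), and over 13 ways of processing it lay between -0.41 and 0.41. Few transcripts stand behind these values, 686 Erg UMIs over all PyMT BECs and 482 over all KPC BECs, and the 7 UMIs of each artery class leave intervals of 5.77 to 29.6 CPM and 8.70 to 44.6 CPM. In the Krt8/Krt18 gate Erg stood at 2.38 CPM in PyMT and 0.735 CPM in KPC, and in KPC fibroblasts at 0.847 CPM.

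Fli1, the closest paralog of Erg among the members, varied little across PyMT endothelium and more across KPC endothelium. PyMT levels were 171 CPM in venule, 146 in artery, 139.9 in tip, 139.9 in capillary, 127 in other and 129 in lymphatic cells, and with classes ranked by level no neighbouring ranks differed. Between classes further apart in rank, the log2 ratio over capillary was 0.29 (0.09 to 0.48) in venule and -0.13 (-0.22 to -0.05) in other cells. In KPC, capillary cells were highest at 244 CPM (95% interval 228 to 260.3), other cells followed at 193, and venule (165), tip (151), artery (136) and lymphatic cells (119.6) came below. Capillary and other each differed from the next class down, while venule, tip, artery and lymphatic neighbours did not. Fli1 fell to 21.4 CPM in the PyMT Krt8/Krt18 gate, 16.5 CPM in KPC fibroblasts and 6.16 CPM in the KPC Krt8/Krt18 gate.

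Ets1 was lower in tip, artery and lymphatic cells than in capillary cells in both libraries. In PyMT its level was 269 CPM in capillary, 256 in other, 254 in venule, 218 in tip, 197 in artery and 180.3 in lymphatic cells. In KPC it was 335 in capillary, 316 in other, 252 in venule, 244 in artery, 228 in tip and 143 in lymphatic cells. The log2 ratio of tip over capillary was -0.30 (95% interval -0.37 to -0.23) in PyMT and -0.55 (-0.66 to -0.45) in KPC, and that of artery over capillary was -0.45 (-0.76 to -0.16) and -0.46 (-0.80 to -0.13). None of these 4 ratios reached the 1.5-fold size used for a call below.

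Ets2 was lower in artery than in capillary cells of both libraries. Artery cells had 73.8 CPM (36 UMIs) against 129 CPM in capillary cells of PyMT, and 40.2 CPM (13 UMIs) against 234 CPM in KPC. The log2 ratio of artery over capillary was -0.81 (-1.33 to -0.33) in PyMT and -2.54 (-3.46 to -1.76) in KPC. Over 13 ways of processing PyMT it lay between -1.39 and -0.58, and over 12 for KPC between -5.03 and -2.31. With cells thinned to 2000 UMIs the PyMT ratio no longer passed as a call, at -0.58 (-1.32 to 0.07). Other PyMT classes stood at 117 (venule), 112 (other), 97.1 (tip) and 67.1 CPM (lymphatic), and other KPC classes at 189 (other), 148 (tip), 128 (venule) and 74.9 CPM (lymphatic). Tip cells were below capillary cells too, with log2 ratios of -0.41 (-0.52 to -0.31) in PyMT and -0.65 (-0.78 to -0.53) in KPC. Venule over capillary was -0.14 (-0.37 to 0.08) and -0.86 (-1.04 to -0.69). In PyMT, artery and tip cells did not differ from each other beyond counting error. Lymphatic cells were also low in both libraries, with log2 ratios over BECs of -0.75 (-0.97 to -0.53) and -1.21 (-1.40 to -1.03). The arterial classes are small, 126 cells in PyMT and 105 in KPC, and no KPC artery value could be had with gates set on thinned counts because fewer than 50 cells were left.

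Elk3 had its highest level in lymphatic cells of both libraries. Those cells had 422 CPM (398 to 447) in PyMT and 429 CPM (407 to 451) in KPC, above every other class beyond counting error. Among BECs of PyMT the levels were 322 CPM in artery, 302 in other, 281 in capillary, 263 in tip and 259 in venule cells. Among BECs of KPC they were 317 in capillary, 287 in other, 262 in venule, 257 in artery and 211 in tip cells. The log2 ratio of lymphatic over BECs was 0.57 (0.48 to 0.65) in PyMT, a 1.48-fold difference just under the size needed for a call, and 0.70 (0.62 to 0.78) in KPC. Over 13 ways of processing it lay between 0.53 and 0.64 in PyMT and between 0.60 and 0.85 in KPC.

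Etv6 was low in every class, between 7.85 and 31.8 CPM. The lowest values, 7.85 CPM in PyMT fibroblasts and 8.40 CPM in PyMT pericyte-gated cells, rest on 1 UMI each. Venule cells were highest in both libraries, at 28.7 CPM in PyMT and 31.8 CPM in KPC, but neither differed from the class next in order beyond counting error. The log2 ratio of venule over capillary was 0.42 (-0.08 to 0.89) in PyMT and 0.58 (0.13 to 1.04) in KPC. The other endothelial classes ranged from 16.1 CPM (lymphatic) to 21.4 (capillary) in PyMT and from 9.27 (artery, 3 UMIs) to 26.2 (other) in KPC. KPC fibroblasts had 18.6 CPM and the Krt8/Krt18 gates 16.3 CPM in PyMT and 8.55 CPM in KPC, the last at a log2 ratio over BECs of -1.54 (-1.87 to -1.22).

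Elf1 ran in opposite directions between venule and capillary cells in the 2 libraries. PyMT levels were 100.5 CPM in artery and 96.0 in venule cells, above 64.9 in capillary, 61.1 in tip, 58.5 in lymphatic and 58.5 in other cells. KPC levels were highest in capillary cells at 157 CPM, followed by other (123), artery (114), venule (104), tip (92.9) and lymphatic cells (48.3). The log2 ratio of venule over capillary was 0.56 (0.30 to 0.82) in PyMT and -0.59 (-0.80 to -0.39) in KPC. The venule levels themselves were near each other, and the capillary levels were not.

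**Figure D1:**
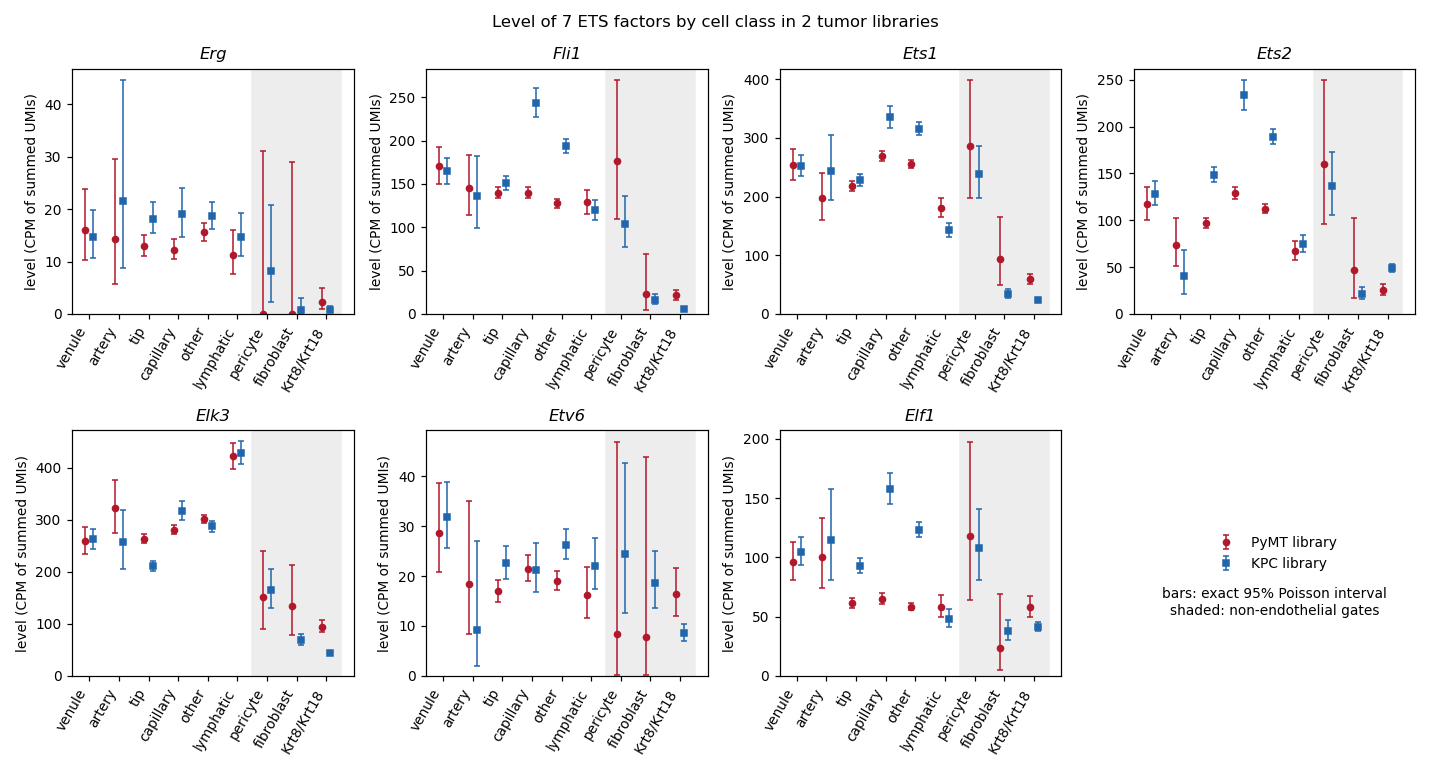
Level of each member (y axis, CPM of summed UMIs) in 9 cell classes (x axis), with circles for the PyMT library and squares for the KPC library and bars for the exact 95% Poisson interval. Elk3 peaks in lymphatic cells of both libraries, and Ets2 is low in artery cells of both. Erg is at 2.38 CPM or less in Krt8/Krt18 cells of both and in KPC fibroblasts. The 28 PyMT fibroblasts held 0 Erg UMIs, with an interval that reaches 29.0 CPM.

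For a count of members, a gene was called when its level differed at least 1.5-fold between classes and the exact 95% interval of the log2 ratio excluded 0, among genes with at least 50 UMIs over the classes compared. Against capillary cells, PyMT venules had 0 of 7 members called in either direction, where 7.42% of all tested genes were higher and 4.03% lower. Elf1 came closest there, at a log2 ratio of 0.56 (0.30 to 0.82), just under the 1.5-fold size. Over 13 ways of processing that ratio lay between 0.53 and 0.93, so the count of 0 depends on the setting. PyMT arteries had Elf1 higher and Ets2 lower (all genes 9.3% higher, 6.73% lower). PyMT tip cells had 0 (2.02% and 3.4%), as had other cells (5.71% and 2.66%). In KPC the calls were all on the lower side. Venules had Ets2 and Elf1 lower (all genes 6.11% higher, 11.6% lower), arteries Fli1 and Ets2 (7.15% and 8.08%), tip cells Fli1, Ets2, Elk3 and Elf1 (7.38% and 14.8%), and other cells none (4.93% and 2.45%). Of the 3 Elf1 calls, those of PyMT arteries and KPC venules lay close to the 1.5-fold size, with log2 ratios of 0.63 and -0.59, and were lost among cells of 2000 to 5000 UMIs, at 0.57 and -0.49. Ets2 in arteries was the one member called the same way against capillary cells in both libraries. Each share of all genes is for its own library, and no share called the same way in both is given, here or below. Capillary cells of KPC were shallow, with a median of 1879 UMIs against 3837 in venule and 5450 in tip cells, so cells within a narrower range of depth were also compared. Among cells of 2000 to 5000 UMIs only, the log2 ratios of KPC tip over capillary were -0.58 for Fli1, -0.51 for Ets2, -0.58 for Elk3 and -0.74 for Elf1, against -0.69, -0.65, -0.59 and -0.76 over all cells, so that only Elf1 still passed the 1.5-fold size.

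Against BECs, lymphatic cells had Ets2 lower in PyMT (all genes 15.8% higher, 8.47% lower). In KPC they had Elk3 higher and Fli1, Ets1, Ets2 and Elf1 lower (13.3% and 14.3%). Fli1 shows how far the libraries part, with a log2 ratio of -0.08 (-0.24 to 0.08) in PyMT and -0.61 (-0.76 to -0.47) in KPC, and Elf1 likewise with -0.09 (-0.34 to 0.14) and -1.26 (-1.49 to -1.04). Within lymphatic cells the libraries were close for both genes, as given below, and the BEC levels differed. The median log2 ratio of the 7 members was -0.26 in PyMT and -0.61 in KPC, against 0.08 and 0.02 over all tested genes.

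**Figure D2:**
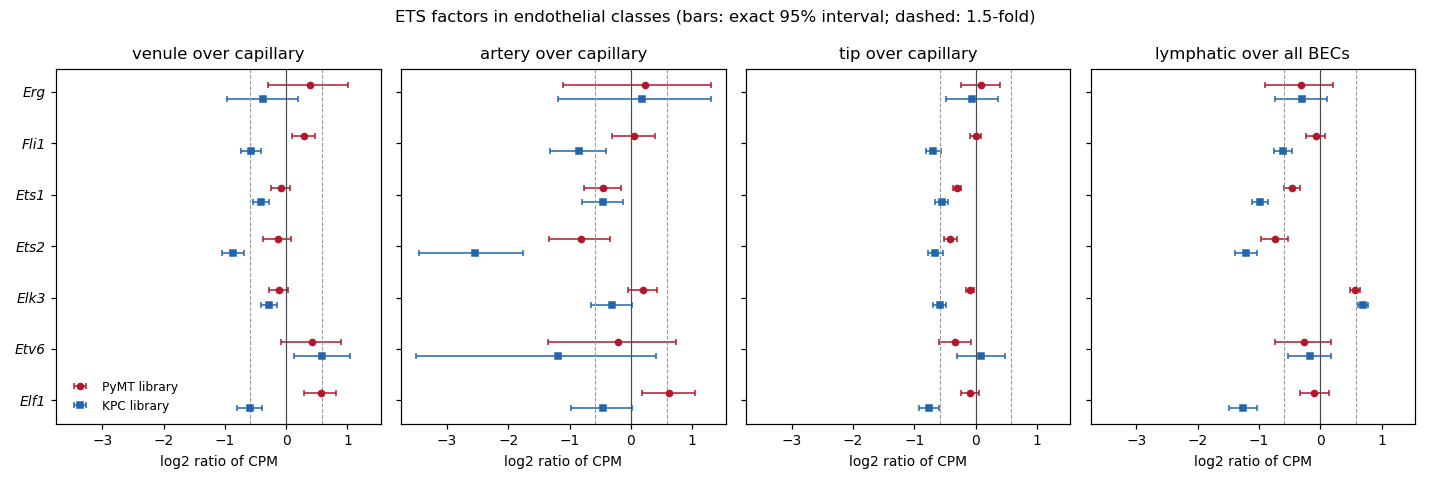
Log2 ratio of CPM (x axis) for each member (y axis) in 3 BEC classes over capillary cells and in lymphatic cells over all BECs, with circles for PyMT, squares for KPC, bars for the exact 95% interval and dashed lines at 1.5-fold. Artery over capillary for Ets2 lies left of 0 in both libraries at -0.81 and -2.54, and lymphatic over BECs for Elk3 lies right of 0 at 0.57 and 0.70.

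In the Krt8/Krt18 gates and KPC fibroblasts, Fli1 fell about as far as endothelial marker genes did. Erg lay near them too, but on few UMIs. Elk3, Etv6 and Elf1 fell less there or were not called lower, and for Ets1 and Ets2 it depended on the gate. Relative to BECs, Erg, Fli1, Ets1, Ets2 and Elk3 were lower in the Krt8/Krt18 gate of both libraries. That gate had 5 of 7 members lower in PyMT (all genes 15% higher, 22.6% lower) and 7 of 7 in KPC (20.6% and 36.5%). KPC fibroblasts had 6 of 7 lower, all but Etv6 (15.8% and 29.9%), and KPC pericyte-gated cells had Fli1 (104 CPM) and Elk3 (165 CPM) lower (8.21% and 6.19%). Elk3 there had a log2 ratio of -0.68 (-1.01 to -0.36), but among cells of 2000 to 5000 UMIs its level was 244 CPM and the ratio -0.17 (-0.63 to 0.25), so that call was lost. Erg in the same gate rested on 4 UMIs, at 8.14 CPM or 44.9% of its BEC level, with a log2 ratio of -1.16 (-3.04 to 0.21). Erg kept 4.06% of its BEC level in the KPC Krt8/Krt18 gate and Fli1 3.37%, beside 4.31% for Pecam1 and 5.12% for Cdh5, the adhesion molecules that define endothelium. In KPC fibroblasts Erg kept 4.67% and Fli1 9.03%, beside 7.88% for Pecam1 and 7.84% for Cdh5. In the PyMT Krt8/Krt18 gate Erg kept 16.9% and Fli1 15.8% beside 14.6% and 14.7%. The Erg values rested on 8 UMIs in the KPC Krt8/Krt18 gate, 2 in KPC fibroblasts and 7 in the PyMT gate. In that order its log2 ratios over BECs were -4.62 (-5.84 to -3.63), -4.42 (-7.47 to -2.56) and -2.56 (-3.88 to -1.51). These intervals do not fix how near Erg lies to the markers. Etv6 and Elf1 kept more, by an amount that depended on the gate. Etv6 stood at 84.3% of its BEC level in the PyMT Krt8/Krt18 gate, 75.1% in KPC fibroblasts and 34.5% in the KPC Krt8/Krt18 gate, and Elf1 at 92.5%, 32.8% and 35.6%. The values in the KPC Krt8/Krt18 gate, both called lower, were near those of Ets2 there (28.0%) and of Elk3 in the PyMT gate (33.3%), so the members do not split cleanly by this measure.

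Endothelial RNA was present in those gates, since 45.6% of PyMT and 39.2% of KPC Krt8/Krt18 cells and 22.8% of KPC fibroblasts had a Pecam1 or Cdh5 UMI. Without those cells, Erg was at 0 UMIs in 206 PyMT Krt8/Krt18 cells and in 342 KPC fibroblasts, where 3 counts would be 2.16 and 1.73 CPM and the exact 95% intervals reach 2.65 and 2.13 CPM, and at 1 UMI in 483 KPC Krt8/Krt18 cells. Fli1 fell to between 1.95 and 3.59 CPM in these 3 sets of cells. Ets2 in the KPC Krt8/Krt18 gate did not fall with them and stood at 47.4 CPM, against 48.5 CPM before. Elk3 was then 71.2 CPM in the PyMT Krt8/Krt18 gate, 53.0 in KPC fibroblasts and 37.6 in the KPC Krt8/Krt18 gate, Elf1 54.6, 36.9 and 42.2 CPM, and Etv6 13.7, 17.3 and 8.28 CPM. Ets1 stood at 18.7, 15.6 and 14.6 CPM.

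**Figure D3:**
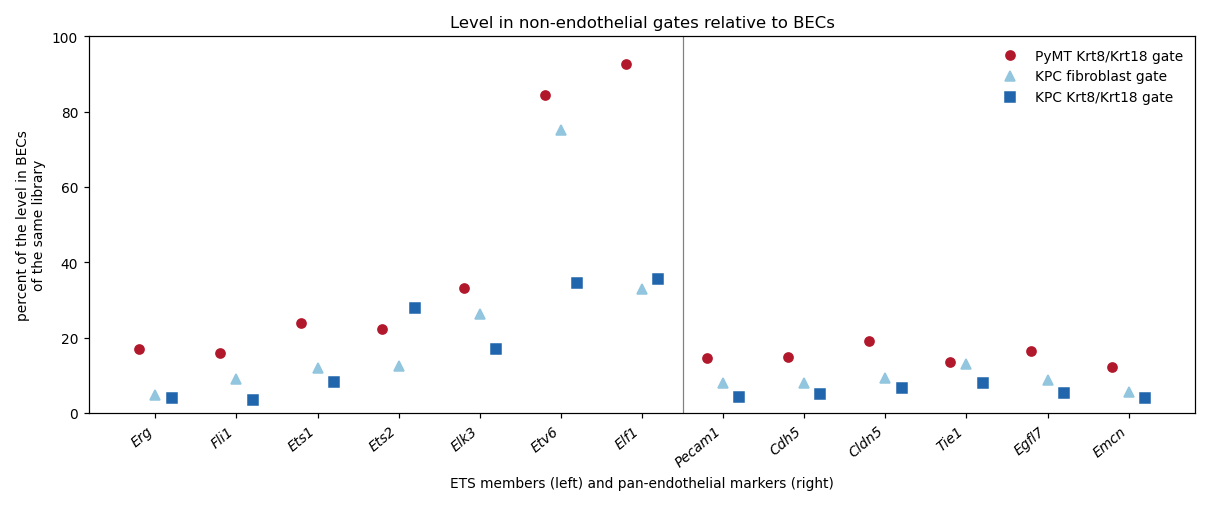
Level in 3 non-endothelial gates as a percent of the level in BECs of the same library (y axis), for the 7 members on the left and 6 pan-endothelial markers on the right. In each gate Erg and Fli1 sit near the height of the endothelial markers, though Erg rests on few UMIs and no intervals are drawn. Elk3, Etv6 and Elf1 sit above the markers in each gate. Ets1 and Ets2 do so in the Krt8/Krt18 gates only.

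Between libraries, Elf1 and Ets2 differed most in BECs. Elf1 was 62.4 CPM in PyMT BECs and 116 CPM in KPC BECs, a log2 of PyMT over KPC of -0.89 (-0.97 to -0.82), and Ets2 was 113 and 174 CPM, a log2 of -0.63 (-0.68 to -0.57). Both were called lower in PyMT, as were 16.3% of all tested genes, while 5.74% were higher and the median gene had -0.13. Fli1 (-0.43), Erg (-0.37), Etv6 (-0.36) and Ets1 (-0.19) were lower in PyMT by less, and Elk3 was a little higher at 0.11 (0.07 to 0.15). In tip cells Ets2 and Elf1 both had -0.61, and in other cells they had -0.75 and -1.08. In capillary cells 4 members were called lower in PyMT, Elf1 (-1.28, interval -1.43 to -1.12), Ets2 (-0.85), Fli1 (-0.80) and Erg (-0.63), where all genes gave 20.5% lower and 8.21% higher. Ets1 at -0.32 (-0.41 to -0.22) and Elk3 at -0.18 (-0.27 to -0.08) were lower in those cells too, without a call. In venule and artery cells every interval of the 7 members included 0, with venule values from -0.15 (Etv6) to 0.12 (Erg), and in lymphatic cells only that of Ets1 excluded it (0.34, interval 0.15 to 0.52). The artery intervals were wide, with Ets2 at 0.88 (-0.07 to 1.92). Among cells of 2000 to 5000 UMIs the capillary values were -1.32 for Elf1, -0.91 for Ets2, -0.89 for Fli1 and -0.58 (-1.21 to 0.08) for Erg. In artery cells of that range Ets2 was 68.5 CPM in PyMT and 17.0 CPM in KPC. That log2 ratio was 2.01 (0.22 to 4.42), an interval that excludes 0 but rests on 75 PyMT and 54 KPC cells. All 105 KPC artery cells held 13 Ets2 UMIs, so at most that many stand behind the KPC value. Tumor model, library and digestion enzyme dose are the same split and cannot be told apart.

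**Figure D4:**
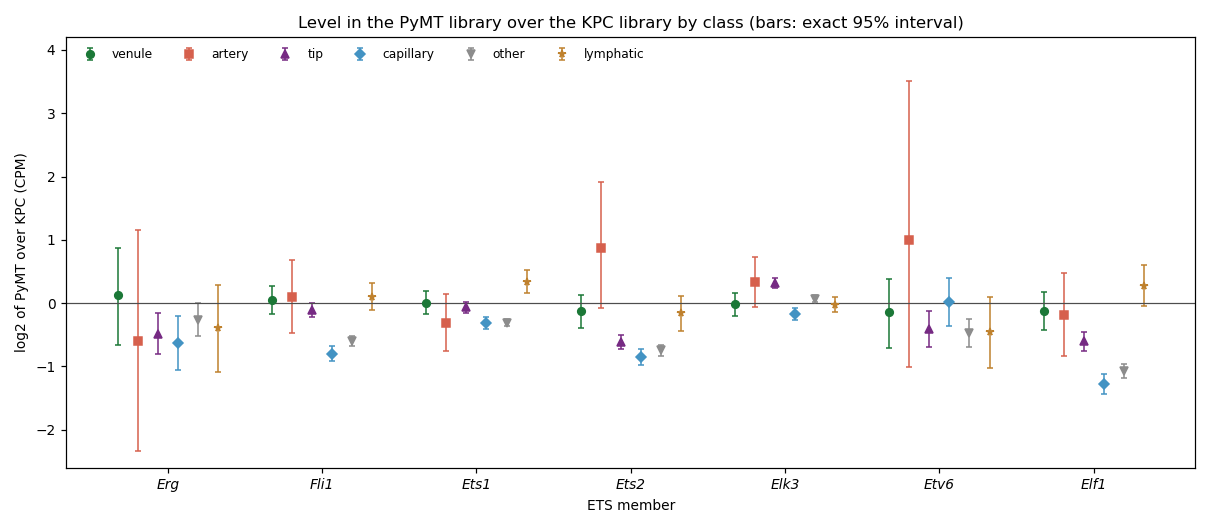
Log2 of the level in PyMT over the level in KPC (y axis) for each member (x axis) in 6 classes, with bars for the exact 95% interval. Venule and artery points lie within their intervals of 0. Capillary points of Elf1, Ets2, Fli1 and Erg lie below 0 by at least 1.5-fold, and those of Ets1 and Elk3 by less.

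Cycling and interferon states were read over all BEC classes together, and the immature state over capillary and other cells together. The mix of classes within each state was not tested. Cycling BECs, with at least 2 UMIs of Mki67 and Top2a, had less Ets2 than other BECs, at 94.96 against 118 CPM in PyMT and 119.7 against 189 CPM in KPC, log2 ratios of -0.31 (-0.41 to -0.21) and -0.66 (-0.78 to -0.54). They were deeper, with median UMIs of 6694 against 3648 in PyMT and 6297 against 2380 in KPC. Among cells of 2000 to 5000 UMIs the ratios for Ets2 were -0.19 (-0.45 to 0.05), an interval that includes 0, and -0.56 (-0.85 to -0.29). In KPC, cycling cells also had less Elf1 (-0.56), Ets1 (-0.47), Fli1 (-0.41) and Elk3 (-0.36), with intervals that excluded 0. In the same range of depth Ets1 stayed at -0.47 (-0.69 to -0.26). Elf1 was then -0.19 (-0.50 to 0.11), Fli1 -0.02 (-0.26 to 0.21) and Elk3 -0.13 (-0.33 to 0.07), intervals that include 0. In PyMT, Erg (-0.30), Ets1 (-0.14) and Elk3 (-0.13) were lower in cycling cells too. Their intervals excluded 0 over all cells, and each included 0 in that range of depth, at 0.12, -0.07 and -0.11. Capillary and other cells with at least 3 UMIs of Kcne3 and Mest, genes of immature angiogenic endothelium, had less Elf1 and Fli1 in KPC, with log2 ratios of -0.88 (-1.11 to -0.67) and -0.61 (-0.77 to -0.45). These cells had a median of 5648 UMIs against 1850 in the rest, and among cells of 2000 to 5000 UMIs the ratios were -0.58 (-1.03 to -0.17) and -0.41 (-0.75 to -0.10). In PyMT the same ratios were -0.20 (-0.33 to -0.07) and -0.22 (-0.31 to -0.14) over all cells, and -0.18 (-0.37 to 0.00) and -0.23 (-0.35 to -0.11) in that range of depth. The state took in 385 KPC cells against 5001 in the rest, but 4280 PyMT cells against 3920, so the libraries set unlike parts against the rest. Over all cells, intervals also excluded 0 for KPC Ets2 (-0.35) and Elk3 (-0.12), and for PyMT Ets1 (0.16) and Elk3 (0.06). In that range of depth the KPC intervals of these genes included 0 and the PyMT ones did not. BECs with at least 5 UMIs of Isg15, Ifit1 and Ifit3 had more Elf1 in PyMT, 81.9 against 61.1 CPM with a log2 ratio of 0.42 (0.23 to 0.61), and 131 against 115 CPM in KPC with 0.18 (-0.05 to 0.40). Among cells of 2000 to 5000 UMIs these ratios were 0.40 (0.06 to 0.73) and 0.24 (-0.19 to 0.63). In KPC these cells also had less Ets1, at -0.35 (-0.53 to -0.18), and Elk3, at -0.19 (-0.36 to -0.03). In that range of depth the 2 became -0.32 (-0.64 to -0.02) and -0.18 (-0.50 to 0.12). Over all PyMT cells Ets1 (0.04) and Elk3 (0.08) had intervals that included 0.

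At the level of cells the members were sparse. With every cell thinned to 2000 UMIs, which left out 1474 PyMT and 3155 KPC cells, 43.8% of PyMT BECs and 39.4% of KPC BECs had an Elk3 UMI, against 57.7% and 56.1% of lymphatic cells. Unthinned, the BEC shares were 65.6% and 52.4%. For Erg the thinned BEC shares were 3.0% and 3.69%, above 0.265% and 0.254% in the Krt8/Krt18 gates, whose cells were deeper before thinning (median UMIs 6939 in PyMT and 12688 in KPC). Ets2 was seen in 1.49% of thinned KPC artery cells (Clopper-Pearson 95% interval 0.0378 to 8.04%) against 36.7% of KPC capillary cells (32.8 to 40.7%). In PyMT those shares were 17.8% (11.04 to 26.3%) and 22.5% (20.8 to 24.2%), and their intervals overlap. A thinned BEC held UMIs of 1.44 members on average in PyMT and 1.68 in KPC, and a thinned Krt8/Krt18 cell of 0.509 and 0.330.

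The rest of the ETS family was represented by 19 genes, all in the files, of which 10 in PyMT and 13 in KPC had at least 50 UMIs. Elf2, Elk4, Erf and Gabpa, broadly used family members, were in BECs at 64.7, 37.7, 35.9 and 21.2 CPM in PyMT and 77.7, 48.0, 42.1 and 26.9 CPM in KPC. Elf4, Elk1, Etv3, Etv4, Etv5 and Etv1 lay between 5.15 and 14.9 CPM in the BECs of both libraries. The epithelial factors Elf3 and Ehf marked the KPC Krt8/Krt18 gate, at 94.2 and 40.4 CPM against 0.752 and 0.188 CPM in BECs. In the PyMT Krt8/Krt18 gate they had 0 and 5 UMIs, and that gate held the PEA3 group, Etv1 at 73.3, Etv4 at 53.7 and Etv5 at 29.5 CPM against 9.12, 14.9 and 5.15 CPM in BECs. Etv4 was called higher in the KPC Krt8/Krt18 gate too, at 26.5 against 8.88 CPM in BECs, while Etv1 had 0.368 and Etv5 8.09 CPM in that gate. The myeloid factor Spi1 did not exceed 3.90 CPM in any class, and 6 immune markers summed to 11.3 CPM in PyMT BECs and 73.1 in KPC BECs.

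Genes tied to the members were counted by list. Of 20 endothelial genes that depend on or are bound by ERG or FLI1, 14 were lower and 1 higher in PyMT lymphatic cells than in BECs, and 17 were lower and 1 higher in KPC, with medians of -0.77 and -1.09. Of all tested genes 8.47% were lower and 15.8% higher in PyMT, and 14.3% and 13.3% in KPC. Aplnr, the apelin receptor, had log2 ratios of -2.18 and -2.88 there, Flt1, a VEGF receptor, -1.98 and -2.68, and Sox17, an arterial factor, -1.90 and -3.08, while Cldn5, a tight junction gene, was higher at 1.90 and 2.57. Erg itself stood at 80.2% and 81.1% of its BEC level in those cells, with log2 ratios of -0.32 (-0.90 to 0.21) and -0.30 (-0.74 to 0.11). In arteries 9.3% of all tested genes were higher than in capillaries and 6.73% lower in PyMT, and 7.15% and 8.08% in KPC. Of the 20 list genes, 7 were higher and 1 lower there in PyMT, and 6 higher and 6 lower in KPC. The medians were 0.30 and -0.16. Those higher in both libraries numbered 6, among them Vwf (1.48 and 2.41) and Sox17 (1.99 and 1.32, an artery check marker too). Aplnr was lower in both (-2.63 and -2.47). In venules 2 of the 20 were higher and 5 lower than in capillaries in PyMT, and 1 and 10 in KPC. The shares of all tested genes in venules were 7.42% and 4.03% in PyMT, and 6.11% and 11.6% in KPC. All 20 were lower in the PyMT and KPC Krt8/Krt18 gates and in KPC fibroblasts, with medians of -2.79, -4.28 and -3.55. The shares of all tested genes that were lower there were 22.6%, 36.5% and 29.9%. The list was made of endothelial genes, and Pecam1, Cdh5, Cldn5, Tie1 and Egfl7 in it are also pan-endothelial markers here. Low levels in non-endothelial gates therefore follow from the choice of genes and tell nothing particular about ERG or FLI1.

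The list counts for lymphatic cells that follow stand beside the shares for all tested genes given above, 8.47% lower and 15.8% higher in PyMT and 14.3% lower and 13.3% higher in KPC. Each share is for its own library, and no share of all genes called the same way in both is given. Of 10 ERK input and feedback genes, 9 had enough UMIs for a call in lymphatic cells of each library. Of these, 3 were lower in PyMT and 4 in KPC, and 0 were higher in either. The 3 lower in both were the feedback inhibitors Spry1 (-1.40 and -1.22), Spry4 (-1.20 and -1.94) and Spred1 (-0.83 and -1.29). In the same cells 5 partner factors of 10 were higher and 0 lower in PyMT, and 5 and 1 in KPC. Those higher in both libraries numbered 4, the lymphatic valve factor Foxc2 (3.84 and 2.95), Lmo2 (1.73 and 0.93), Tal1 (1.17 and 0.81) and Foxc1 (0.83 and 1.40). The 7 serum response factor targets, which ELK3 can repress, went in different directions. In lymphatic cells 4 were higher and 0 lower in PyMT, and 0 higher and 2 lower in KPC, and no target was called the same way in both libraries in any comparison made in both. Of 5 corepressors, only Hdac3 was called the same way in both libraries, higher in the Krt8/Krt18 gate (1.44 and 1.62). In that gate 15% of all tested genes were higher in PyMT and 20.6% in KPC, each library on its own.

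Across 7 classes in 2 libraries, 14 points centred within library, the gene most like each member in its log2 pattern was sought among 9455 genes. Erg was closest to Cdh5, with Pearson's r of 0.983, followed by Rasip1 (0.982) and 4931406P16Rik (0.981). Fli1 was closest to Scarf1, Tacc1 and Ginm1, Ets1 to Prkch, Arhgef15 and Rtl8b, and Elk3 to Rhoj (0.983), Sash1 and Aplp2. Ets2 (Trpm4, 0.940, then Aplp1 and Gskip), Etv6 (Evl, 0.917, then Ogfrl1 and Nfrkb) and Elf1 (Erp44, 0.967, then Cldn34c1 and Clec14a) had lower highest values. Among the members the neighbours Fli1 and Ets1 had r of 0.978 and the neighbours Erg and Ets2 0.605, while Erg and Fli1 had 0.961. The points share library and depth, and the Krt8/Krt18 class sets much of the range, so these are descriptions without a p.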

How the data were processed

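Droplet libraries of sorted tumor endothelial cells, 1 from PyMT and 1 from KPC tumors, were analysed. The authors aligned reads to mm10 with Cell Ranger (3.0 in the submitters' processing notes, 3.0.2 in the file headers) and deposited whole-number UMI counts per gene and barcode, without normalization or removal of contaminating cells. The annotation is not given in the sources used here. Strand overlaps and positions were read from GENCODE (GRCm38) and promoters from RefSeq (GRCm38.p6).

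Cells were kept from 500 genes upward with mitochondrial UMIs below 10%. They were gated in order, tumor genes Krt8 and Krt18 at 5 or more UMIs, fibroblast 10, lymphatic 3, pericyte 2, venule 3, artery 2, tip 3 and capillary 2, each summed over its gate genes. UMIs were summed per class and scaled to 1000000 (CPM), with exact 95% Poisson intervals. Ratios had exact 95% intervals from the binomial distribution of the sums. A call needed 1.5-fold, an interval excluding 0 and 50 UMIs. Classes under 50 cells (27 pericyte-gated and 28 fibroblast cells of PyMT) were given no ratio. Intervals and the floor of 3 counts for a 0 cover counting error only. Likeness used log2(CPM + 10), classes of at least 100 cells and genes of at least 200 UMIs in each library. Named list genes are up to 4 per list with the largest ratios called in both libraries. Cells were thinned to 2000 UMIs with seed 0 for shares. Python 3.11.15, numpy 2.4.6, scipy 1.17.1, pandas 2.3.3 and matplotlib 3.10.9 were used.

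Members, gates, gene lists and alternatives were chosen with earlier results of these data known. The study's own normalization and cell type assignment were not repeated. Besides 11 alternative settings chosen at the outset, 3 were chosen after seeing the data: without Pecam1 or Cdh5 UMIs in non-endothelial gates, cells of 2000 to 5000 UMIs, and BECs without cycling cells.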

Additional observations from a re-analysis of the deposited data

Results flagged for a closer look

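In 3 cases a member ran in opposite directions in the 2 tumor models, with both intervals excluding 0. The difference itself was not tested, since each model has 1 library. Fli1 had a log2 ratio of venule over capillary of 0.29 in PyMT and -0.57 in KPC. Elf1 had 0.56 and -0.59 for the same classes. Elk3 had a log2 ratio of other over capillary of 0.10 in PyMT and -0.14 in KPC, less than 1.5-fold either way. Venule levels of Fli1 (171 and 165 CPM) and Elf1 (96.0 and 104 CPM) were close between libraries, while KPC capillary cells carried more of both and had a median of 1879 UMIs against 4254 in PyMT. Among cells of 2000 to 5000 UMIs the ratios of venule over capillary were 0.34 and -0.55 for Fli1 and 0.70 and -0.49 for Elf1, so the signs were opposite in that range of depth too.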

How the results depend on the processing

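Of 1143 recomputed log2 ratios of members, 1007 stayed within their counting error, 136 moved by more and 0 called ratios changed sign, while 12 had 0 UMIs in a class and gave no value. Counts of members called changed by more than 1.5 times in 46 of 386 recomputations. For PyMT venules the count of members higher than in capillaries went from 0 to 1 (cells of at most 1 gate, mean of per-cell CPM, without the 8% deepest barcodes, gates on thinned counts, without cycling cells) or to 2 (cells thinned to 2000 UMIs, cells of 2000 to 5000 UMIs). For PyMT arteries the count higher went from 1 to 0 with per-cell means, without the 8% deepest barcodes, with thinned cells, gates on thinned counts, scaling without mitochondrial and ribosomal genes, a 2-fold call or cells of 2000 to 5000 UMIs. The count lower there went from 1 to 2 with gates 1 UMI stricter and to 0 with thinned cells or a 2-fold call. For PyMT lymphatic cells the count higher went from 0 to 1 with cells of at most 1 gate, without the deepest barcodes, with gates on thinned counts or cells of 2000 to 5000 UMIs. The count lower went from 1 to 2 with cells of at most 1 gate or per-cell means and to 0 with a 2-fold call. For KPC venules the count lower went from 2 to 1 (1000 genes and 5% mitochondrial UMIs, cells of at most 1 gate, other scaling, cells of 2000 to 5000 UMIs) or 0 (2-fold), and the count higher from 0 to 1 (cells of at most 1 gate, stricter gates, per-cell means, thinned cells, other scaling). For KPC arteries the count lower went from 2 to 1 with a 2-fold call and to 4 without cycling cells. For KPC tip cells it went from 4 to 0 with a 2-fold call and to 1 with cells of 2000 to 5000 UMIs. For KPC other cells it went from 0 to 1 with stricter gates and to 2 with gates on thinned counts. For KPC lymphatic cells a 2-fold call took the count higher from 1 to 0 and the count lower from 4 to 2. For KPC pericyte-gated cells the count lower went from 2 to 1 (1000 genes, gates on thinned counts, cells of 2000 to 5000 UMIs) or 0 (2-fold). The cause of these shifts was not tested beyond the settings' own construction. Limiting the other class to endothelial cells or asking for 200 UMIs changed no count. Gates on thinned counts left too few KPC artery cells for a value, cells of 2000 to 5000 UMIs too few KPC Krt8/Krt18 cells, and removal of Pecam1 and Cdh5 positive cells too few KPC pericyte-gated cells (45). No paired analysis was possible because each tumor model has 1 library, and no replicate could be left out. Depth limits Erg and Etv6 most, whose artery levels rest on between 3 and 9 UMIs.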
